A study of Homo sapiens with 24 samples.

Results

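A set of 10 genes that move or transaminate amino acids were followed in ARPE-19 cells, an established human line derived from the retinal pigment epithelium (RPE), the cell layer that nourishes the photoreceptors. They were 8 genes of plasma membrane amino acid carriers (SLC7A8, SLC7A5, SLC3A2, SLC7A1, SLC1A4, SLC1A5, SLC38A1 and SLC38A2) and both branched-chain aminotransferases (BCAT1 and BCAT2). The 10 genes were taken by name from 24053 Ensembl identifiers, and 9 of them were among the 13810 genes tested, those that averaged 1 TPM or more over all samples. TPM is transcript abundance corrected for transcript length and scaled to the same total in every sample. The set was chosen with results of these samples in view. The rise of SLC7A8 with Pink1 siRNA was taken as the result that led to the choice, so that difference is given as a description with no test. The other genes were chosen by their function, with results of the same samples in view. Whether results for any of them, BCAT1 included, also played a part is not known, so their p-values carry that limit.

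The cells received scramble siRNA, siRNA to Pink1, siRNA to Nrf2, or the Nrf2-Pink1 combination, called the double siRNA here. Pink1 (gene PINK1) is a kinase that marks damaged mitochondria, and Nrf2 (gene NFE2L2) is the transcription factor that drives antioxidant genes. Each group had 3 biological replicates with 2 technical replicates each, 24 deposited samples in all, and technical replicates were averaged to 12 biological samples. The labels use knockout and KD for what the study design calls siRNA, name no siRNA sequence or dose, and describe a scratch wound without stating if it was made in the wells that gave RNA.

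Amino acids cross the plasma membrane through families of carriers with overlapping cargo. SLC7A5 (LAT1) and SLC7A8 (LAT2) are light chains that exchange large neutral amino acids, leucine among them, and each reaches the cell surface bound to the heavy chain SLC3A2 (4F2hc). SLC7A1 (CAT1) takes up arginine and lysine, SLC1A4 and SLC1A5 exchange small neutral amino acids and glutamine, and SLC38A1 and SLC38A2 take up glutamine and alanine with sodium. Inside the cell, BCAT1 in the cytosol and BCAT2 in mitochondria move the amino group of leucine, isoleucine and valine to form glutamate.

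The siRNA targets were lowered in the libraries labelled with them. PINK1 was at 55.8 ± 1.93 TPM in scramble, 14.6 ± 3.22 TPM with Pink1 siRNA and 18.7 ± 2.93 TPM with the double siRNA (mean ± SD, n = 3 here and throughout). NFE2L2 was at 80.7 ± 7.69 TPM in scramble, 20.03 ± 7.72 TPM with Nrf2 siRNA and 28.9 ± 6.16 TPM with the double siRNA. The RPE genes MITF and OTX2 and the keratins KRT8 and KRT18 were well detected in all 12 samples, with lowest values of 55.3, 47.7, 728 and 465 TPM, while RPE65, the defining visual cycle enzyme, was at most 0.36 TPM. Other RPE genes were lower than MITF and OTX2. RLBP1 was at 0.39 to 3.69 TPM, PMEL at 3.03 to 7.14 TPM, BEST1 at 4.08 to 9.48 TPM and TYRP1 at 8.29 to 53.0 TPM. The neuronal marker SYP was at most 0.56 TPM, and PECAM1 and CDH5 were not analysed here. One identifier with no symbol, ENSG00000226958, took 15.5% of all TPM in replicate 3 of the double siRNA and 41.4% in replicate 1 of that group, which are the lowest and highest shares. The deposited TPM carry no read numbers, so the depth is unknown.

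Of the 10 genes, SLC7A8 and BCAT1 passed the test in at least 1 comparison, and none of the other 7 tested did in any. SLC7A8 lay lowest in scramble, highest with Pink1 siRNA and between them in both groups given Nrf2 siRNA. BCAT1 lay at means of 50.4 and 54.5 TPM in scramble and with Pink1 siRNA and at 27.0 and 24.7 TPM with Nrf2 siRNA and the double siRNA. The heavy chain SLC3A2 had the highest level of the 10 genes on the TPM scale, with a mean of 220 TPM over the 12 samples, and 97.0% of the tested genes were lower. Next came SLC38A1 at 78.1 TPM and SLC7A5 at 48.5 TPM, then BCAT1 at 39.2, SLC7A8 at 38.9, BCAT2 at 30.4, SLC7A1 at 23.6, SLC1A4 at 9.95, SLC1A5 at 4.30 and SLC38A2 at 0.741 TPM. The neighbours BCAT1 and SLC7A8 in that order had ranges that overlapped almost wholly, from 19.1 to 55.1 TPM and from 14.0 to 81.9 TPM.

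**Figure D1:**
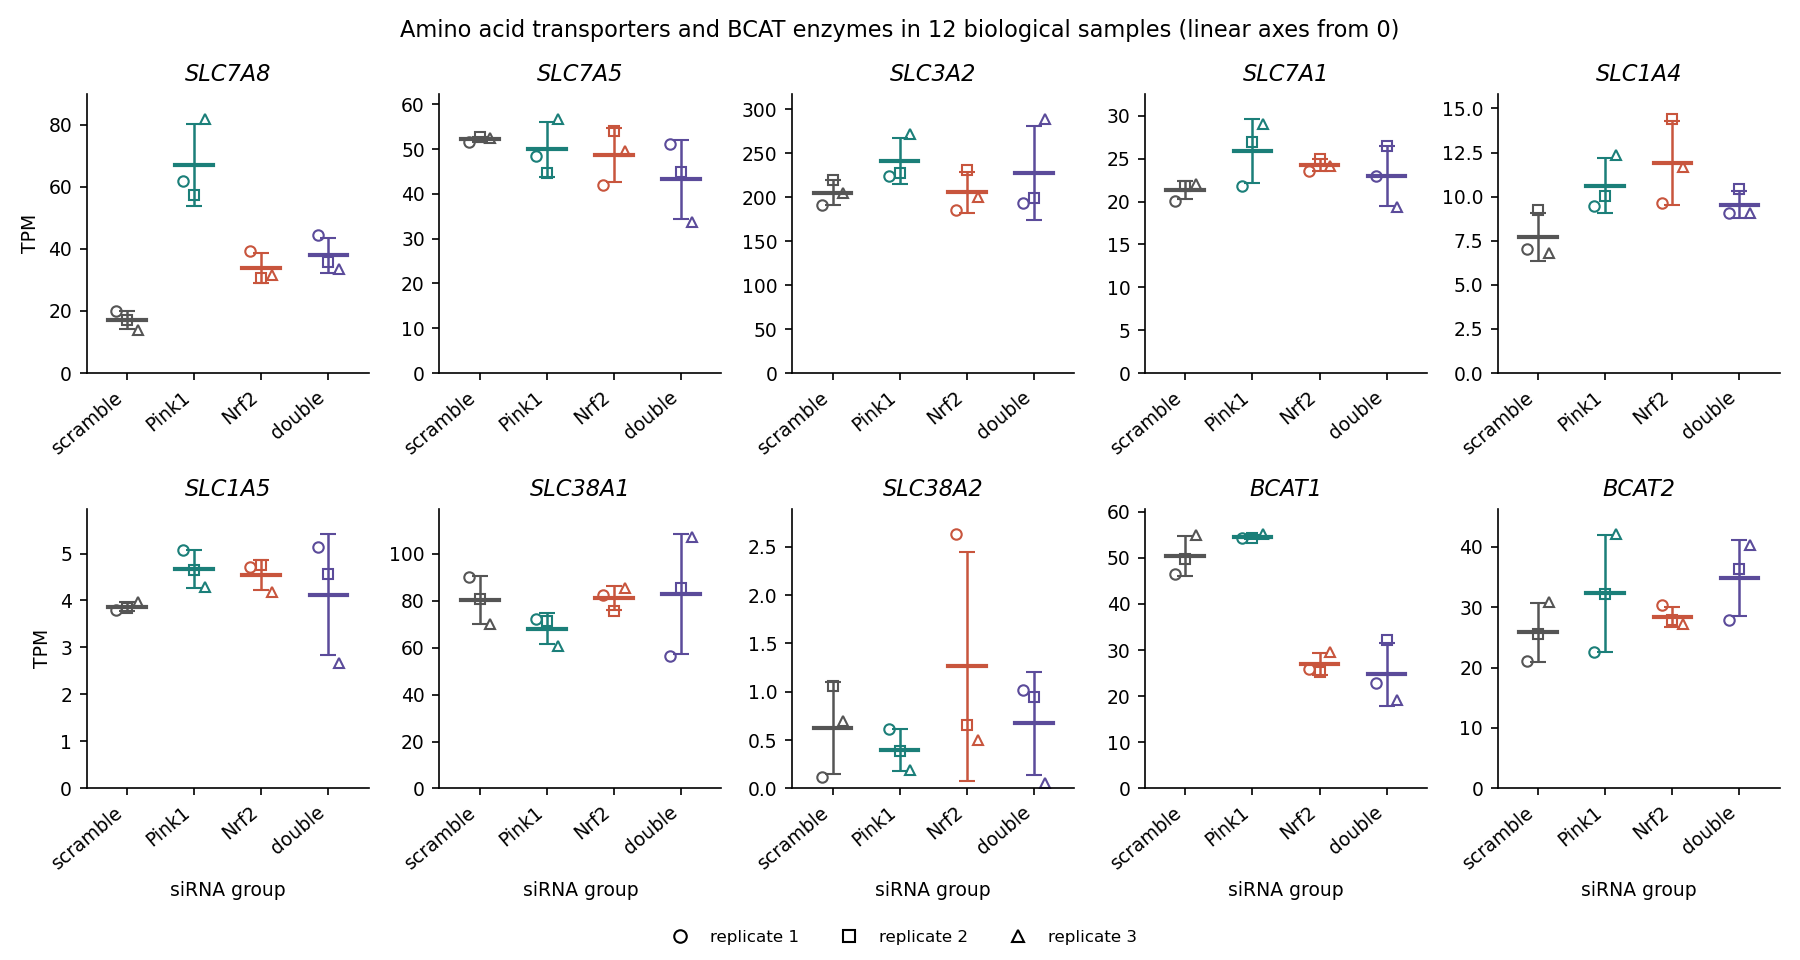
TPM (linear axes from 0) of each of the 10 genes in the 12 biological samples, by siRNA group. Symbols mark the biological replicates, thick bars the mean and thin bars the SD (n = 3); SLC7A8 is lowest in scramble and highest with Pink1 siRNA, and BCAT1 is lower in both groups given Nrf2 siRNA.

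Counts were read against those of all 13810 genes, with a gene called when its adjusted p (limma, Benjamini-Hochberg over all genes tested) was under 0.05. Against scramble, Pink1 siRNA gave 1 call among the 9 tested members, SLC7A8 itself, where 0.471% of all genes were called, and nothing is read from that count. Nrf2 siRNA gave 0 calls among the 9, where 0.333% of all genes were called, and 3 members (SLC7A8, BCAT1 and SLC1A4) had an unadjusted limma p under 0.05, as did 12.2% of all genes. The double siRNA gave 2 calls among the 9, SLC7A8 higher and BCAT1 lower, where 0.753% of all genes were called.

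Between the siRNA groups the pattern of calls was as follows. The double siRNA against Pink1 siRNA gave 1 call of 9, BCAT1 lower, where 0.0434% of all genes were called. The double siRNA against Nrf2 siRNA gave 0 of 9, where 0.0145% of all genes were called, and no member had an unadjusted limma p under 0.05, where 6.95% of all genes had one; the groups did not overlap for 0 of the 9, where 9.49% of all genes did not. Pink1 siRNA against Nrf2 siRNA gave 2 of 9, SLC7A8 and BCAT1, both higher with Pink1 siRNA, where 0.992% of all genes were called. The SLC7A8 call there uses the Pink1 siRNA samples for which that gene was chosen, so nothing is read from its part in the count. These comparisons share samples: the scramble samples enter every comparison with scramble, and each siRNA group enters several, so their calls are not separate evidence.

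The median log2 difference of the 9 tested members from scramble was 0.23 with Pink1 siRNA, 0.15 with Nrf2 siRNA and 0.09 with the double siRNA, where the medians of all genes tested were 0.02, 0.02 and 0.01. Groups did not overlap for 4 of the 9 with Pink1 siRNA, where 25.0% of all genes did not overlap, for 5 with Nrf2 siRNA, where 22.9% did not, and for 3 with the double siRNA, where 18.0% did not. The count and the median with Pink1 siRNA include SLC7A8, chosen for that very difference, so nothing is read from them. SLC7A8 is also in the other counts and medians, which use the same scramble samples. The 7 members other than SLC7A8 and BCAT1 had log2 differences from scramble of -0.23 to 0.42 with Pink1 siRNA, -0.11 to 0.56 with Nrf2 siRNA and -0.29 to 0.42 with the double siRNA. Their smallest adjusted p in those comparisons were 0.358, 0.205 and 0.410 by limma.

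**Figure D2:**
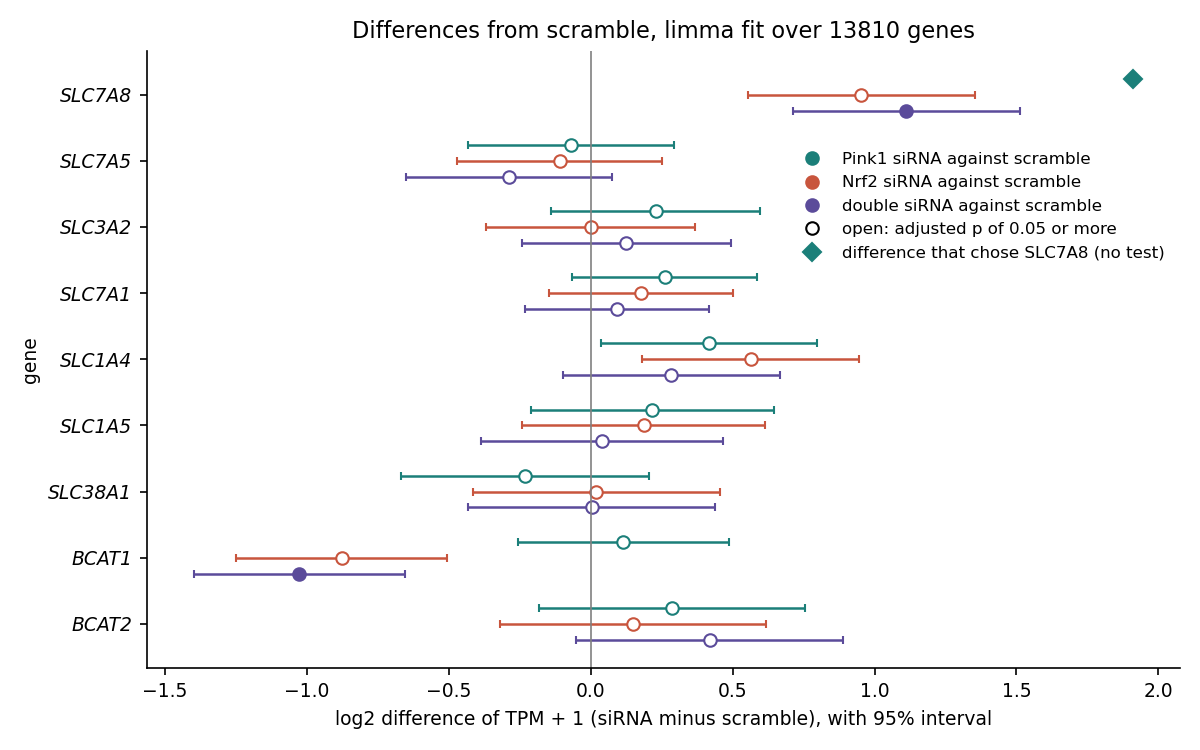
Log2 difference of TPM + 1 from scramble for the 9 tested genes, with the 95% interval of the limma fit, by siRNA group. Filled circles passed the adjusted p of 0.05 and open circles did not; the diamond is the difference for which SLC7A8 was chosen and has no test. BCAT1 with Nrf2 siRNA and SLC7A8 with Nrf2 siRNA lie away from 0 but are open.

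SLC7A8 (ENSG00000092068), the light chain LAT2, was at 20.04, 17.1 and 14.0 TPM in replicates 1 to 3 of scramble and at 61.8, 57.2 and 81.9 TPM with Pink1 siRNA. With Nrf2 siRNA it was at 39.3, 30.6 and 31.6 TPM, and with the double siRNA at 44.4, 35.8 and 33.5 TPM. No sample of any siRNA group reached down to the scramble samples, no sample of the other groups reached up to the Pink1 siRNA samples, and the Nrf2 siRNA and double siRNA samples overlapped. In bulk RNA, a change in the share of cells that express a gene and a change in RNA per cell cannot be told apart.

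The group means of SLC7A8 were 17.0 ± 3.02 TPM in scramble, 67.0 ± 13.1 TPM with Pink1 siRNA, 33.8 ± 4.78 TPM with Nrf2 siRNA and 37.9 ± 5.73 TPM with the double siRNA. With Pink1 siRNA this is 3.93 times the scramble mean, the difference for which the gene was chosen. With Nrf2 siRNA the log2 difference from scramble was 0.95 (SE 0.18, 95% interval 0.55 to 1.35), which missed the threshold (limma adjusted p = 0.0523). With the double siRNA SLC7A8 rose by 1.11 on the log2 scale (SE 0.18, 0.71 to 1.51, limma adjusted p = 0.0192). Both differences use the scramble samples that also enter the difference for which the gene was chosen.

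Among the siRNA groups, SLC7A8 was higher with Pink1 siRNA than with Nrf2 siRNA by 0.96 on the log2 scale (SE 0.18, limma adjusted p = 0.0295), a comparison that uses the Pink1 siRNA samples for which it was chosen. The double siRNA against Pink1 siRNA gave a log2 difference of -0.80 that did not pass (95% interval -1.20 to -0.40, limma adjusted p = 0.261). The samples of these groups did not overlap, as for 2 of the 9 members and 8.85% of all genes. The Pink1 siRNA samples for which SLC7A8 was chosen enter this comparison too, so nothing is read from its part in that count. The double siRNA and Nrf2 siRNA differed by 0.16 (95% interval -0.24 to 0.56, limma adjusted p = 0.913). That last comparison is the only pairwise one that uses neither scramble nor Pink1 siRNA samples.

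The log2 differences of SLC7A8 moved less than its calls when samples were left out. The call against scramble in the double group was lost on leaving out scramble replicate 2 (log2 difference 1.12, limma adjusted p = 0.0977) or scramble replicate 3 (0.99, 0.0916) and when only the compared groups were fitted (1.11, 0.167), with log2 differences of 0.99 to 1.23 over 15 alternatives. The call of Pink1 siRNA over Nrf2 siRNA remained in 7 of 15 alternatives. It ended without any one of the Pink1 siRNA replicates and without Nrf2 siRNA replicates 2 or 3, with limma adjusted p of 0.0622 to 0.141 in those 5 fits and log2 differences of 0.80 to 1.06, against 0.96 with all samples.

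The interaction asks whether the double siRNA differs from the sum of the single siRNAs on the log2 scale. For SLC7A8 the double siRNA fell short of that sum, with an interaction of -1.75 (SE 0.26, 95% interval -2.32 to -1.19). It did not pass over all genes (limma adjusted p = 0.0697), where 0% of the 13810 genes were called, and 0 of the 9 members were called. It passed with a minimum mean of 5 TPM (adjusted p = 0.0295) and without replicate 1 of the double siRNA (0.0394), 2 of 20 alternatives. The value contains the Pink1 siRNA difference for which the gene was chosen, so a large Pink1 siRNA value by itself lowers it. SLC1A4 had the other unadjusted limma p under 0.05 among the members, where 5.45% of all genes had one, with an interaction of -0.70 (SE 0.25, adjusted p = 0.823).

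RefSeq (GRCh38.p14) lists promoter windows of 300 bases, from 250 before to 50 after a transcription start, for 9 of the 10 genes, 22 windows in all. Since the siRNAs target Nrf2 and since amino acid carriers are textbook targets of ATF4, these windows were searched on both strands for the antioxidant response element core TGACNNNGC and for the amino acid response (CARE) core TGATGNAA. The first was in 4 of the 22 windows (18.2%) and in 13.3% of all 35116 RefSeq windows, and the second in 6 of 22 (27.3%) and in 3.62% of all. In the windows printed here the matches of both searches do not overlap each other. The windows of a gene can overlap, and a match is a description of letters, not a binding site.

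The windows of the genes that moved are shown with the heavy chain for contrast, each 5′ to 3′ on the gene's strand, with motif matches in capitals. None of the 4 SLC7A8 windows holds either motif, and the outermost one, chr14:23183611-23183910 on the minus strand, is printed. One of the 5 BCAT1 windows, chr12:24949052-24949351 on the minus strand, holds a CARE core with its first letter at position -48 from the start. One of the 3 SLC3A2 windows, chr11:62881449-62881748 on the plus strand, holds an antioxidant response core at -37 and, on the opposite strand, a CARE core at 37.
SLC7A8: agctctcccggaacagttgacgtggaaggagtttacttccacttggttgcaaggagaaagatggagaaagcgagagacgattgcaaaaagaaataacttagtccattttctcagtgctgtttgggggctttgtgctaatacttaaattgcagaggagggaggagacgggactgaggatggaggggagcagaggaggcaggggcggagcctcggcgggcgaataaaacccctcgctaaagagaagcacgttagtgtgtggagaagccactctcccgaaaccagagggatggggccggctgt
BCAT1: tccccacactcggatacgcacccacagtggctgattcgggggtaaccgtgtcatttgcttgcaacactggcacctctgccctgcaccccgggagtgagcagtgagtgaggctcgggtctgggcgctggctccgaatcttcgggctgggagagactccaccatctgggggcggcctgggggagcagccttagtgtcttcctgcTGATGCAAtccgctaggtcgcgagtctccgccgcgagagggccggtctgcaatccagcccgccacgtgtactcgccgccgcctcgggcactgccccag
SLC3A2: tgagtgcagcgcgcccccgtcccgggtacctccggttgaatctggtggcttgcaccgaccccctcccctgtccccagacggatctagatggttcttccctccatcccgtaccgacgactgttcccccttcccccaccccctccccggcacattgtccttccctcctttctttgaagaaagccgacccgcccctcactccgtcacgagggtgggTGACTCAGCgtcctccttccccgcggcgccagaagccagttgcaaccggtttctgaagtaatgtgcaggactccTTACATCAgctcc

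SLC7A5 (ENSG00000103257), the light chain LAT1, ranged from 33.7 to 56.7 TPM over the 12 samples and did not pass in any comparison. It was at 51.6, 52.6 and 52.5 TPM in scramble, 48.4, 44.8 and 56.7 TPM with Pink1 siRNA, 42.1, 54.0 and 49.6 TPM with Nrf2 siRNA, and 51.2, 44.8 and 33.7 TPM with the double siRNA. The double siRNA samples all lay under the scramble samples. Its log2 difference from scramble was -0.07 with Pink1 siRNA (95% interval -0.43 to 0.29), -0.11 with Nrf2 siRNA (-0.47 to 0.25) and -0.29 with the double siRNA (-0.65 to 0.07, limma adjusted p = 0.474). The near-identical copies SLC7A5P1 and SLC7A5P2 were at most 0.975 and 2 TPM in a sample, so reads that the authors' counting could have split between them and SLC7A5 were few on the TPM scale.

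The heavy chain SLC3A2 (ENSG00000168003) was at 205 ± 14.3 TPM in scramble, 241 ± 26.5 TPM with Pink1 siRNA, 206 ± 23.3 TPM with Nrf2 siRNA and 227 ± 53.5 TPM with the double siRNA. All 3 Pink1 siRNA samples, at 224, 228 and 272 TPM, lay above the highest scramble sample at 219 TPM. The log2 difference was 0.23 (95% interval -0.14 to 0.60) and did not pass (limma adjusted p = 0.623). The wide spread of the double siRNA came from replicate 3 at 289 TPM, against 194 and 199 TPM in replicates 1 and 2, and without that replicate the log2 difference from scramble changed from 0.12 to -0.06. ENSG00000226958 took 41.4%, 29.4% and 15.5% of all TPM in replicates 1 to 3 of that group, and TPM share a fixed total. With that identifier removed the log2 difference of SLC3A2 was 0.020. How far its share set the spread was not tested.

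As each light chain needs SLC3A2, the light chains were also set beside one another within each sample. The 5 light chains summed are SLC7A5, SLC7A8, SLC7A6, SLC7A7 and SLC7A11, the last of which carries cystine. SLC7A8 made up 18.3 ± 2.37% of their summed TPM in scramble, 47.9 ± 2.99% with Pink1 siRNA, 31.9 ± 5.43% with Nrf2 siRNA and 37.9 ± 3.11% with the double siRNA. SLC7A5 made up 56.4 ± 3.72%, 35.9 ± 0.519%, 45.5 ± 4.31% and 42.9 ± 3.44% in the same order. In all 3 Pink1 siRNA samples SLC7A8 exceeded SLC7A5, with ratios of 1.28, 1.28 and 1.44, whereas in all 9 other samples SLC7A5 exceeded SLC7A8, with ratios of SLC7A8 to SLC7A5 from 0.267 to 0.995. These shares contain SLC7A8 and therefore repeat the difference for which it was chosen.

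The sum of the 5 light chains was 92.8 ± 5.47 TPM in scramble, 139 ± 18.1 TPM with Pink1 siRNA, 107 ± 3.42 TPM with Nrf2 siRNA and 100.1 ± 13.1 TPM with the double siRNA. SLC3A2 stood at 2.22 ± 0.203 times that sum in scramble and at 1.74 ± 0.0723 times with Pink1 siRNA. With Nrf2 siRNA the ratio was 1.93 ± 0.156, and with the double siRNA it was 1.75, 1.91 and 3.38 in replicates 1 to 3. All Pink1 siRNA samples lay below all scramble samples, while replicate 3 of the double siRNA lay above all other samples. The sum contains SLC7A8, so its rise with Pink1 siRNA and the lower ratio there repeat the difference for which SLC7A8 was chosen.

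**Figure D3:**
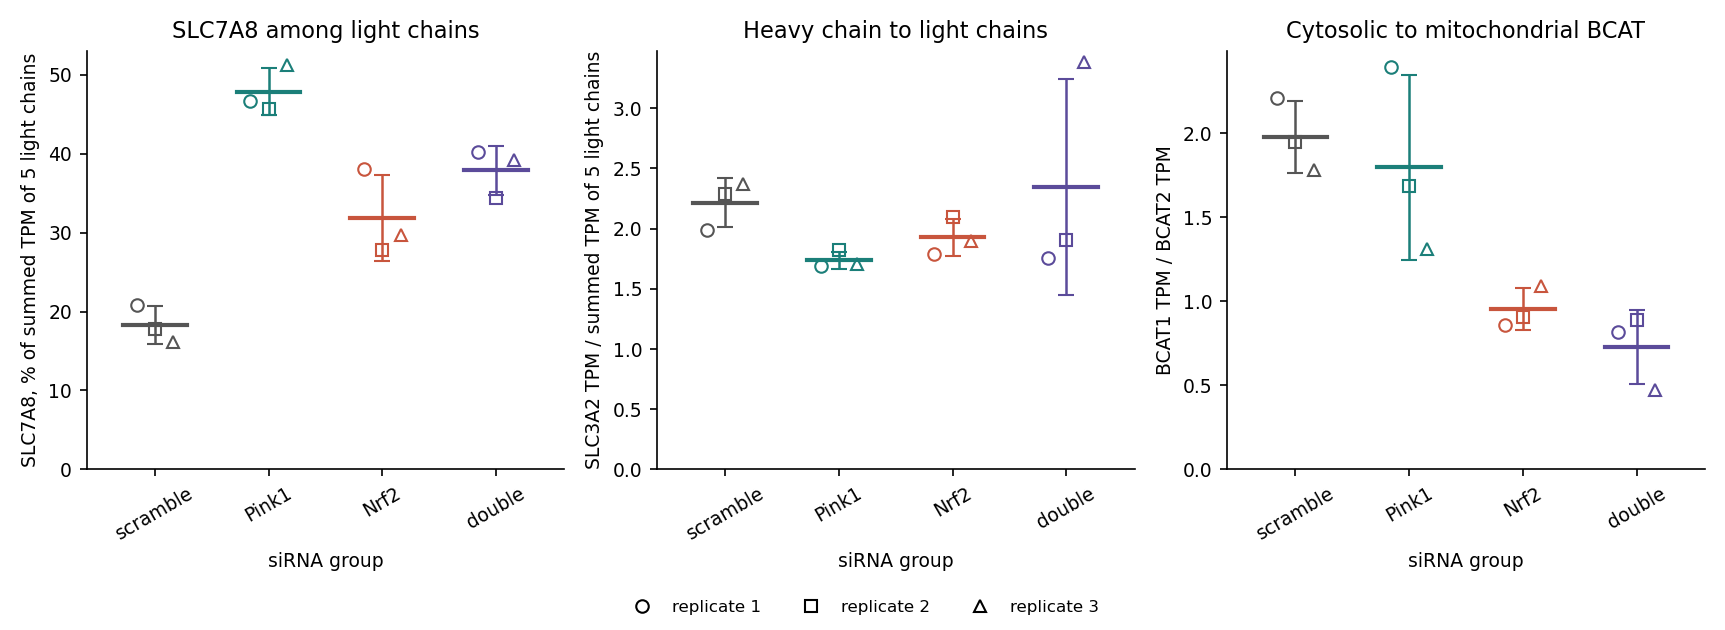
The 3 ratios in each of the 12 samples by siRNA group, on linear axes from 0: the percent of the summed TPM of 5 light chains that is SLC7A8, SLC3A2 TPM over that sum, and BCAT1 TPM over BCAT2 TPM. Symbols mark replicates, thick bars the mean and thin bars the SD (n = 3); the SLC7A8 share is 18.3% in scramble and 47.9% with Pink1 siRNA, and the BCAT1 to BCAT2 ratio is 1.98 in scramble and 0.727 with the double siRNA.

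SLC7A1 (ENSG00000139514), the arginine and lysine carrier, differed little. It was at 21.3 ± 1.07 TPM in scramble, 25.9 ± 3.72 TPM with Pink1 siRNA, 24.3 ± 0.681 TPM with Nrf2 siRNA and 23.0 ± 3.55 TPM with the double siRNA. The Nrf2 siRNA samples, from 23.6 to 25.0 TPM, lay above the scramble samples, from 20.1 to 22.1 TPM, with a log2 difference of 0.18 (95% interval -0.15 to 0.50, limma adjusted p = 0.694). The other siRNA groups overlapped with scramble.

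SLC1A4 (ENSG00000115902), the alanine, serine and cysteine exchanger ASCT1, did not pass in any comparison. Its log2 difference from scramble was the largest of the 7 other tested members with each single siRNA, and with the double siRNA BCAT2 and SLC7A5 differed more. It was at 7.06, 9.26 and 6.83 TPM in scramble, 9.45, 10.01 and 12.4 TPM with Pink1 siRNA, 9.66, 14.4 and 11.7 TPM with Nrf2 siRNA, and 9.10, 10.4 and 9.10 TPM with the double siRNA. All Pink1 siRNA and Nrf2 siRNA samples lay above all scramble samples, and the double siRNA samples overlapped with them. The log2 difference was 0.42 with Pink1 siRNA (95% interval 0.04 to 0.80, limma adjusted p = 0.358), 0.56 with Nrf2 siRNA (0.18 to 0.94, 0.205) and 0.28 with the double siRNA (-0.10 to 0.67, 0.497).

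SLC1A5 (ENSG00000105281), the glutamine exchanger ASCT2, was low on the TPM scale as deposited, and whether the annotation or the counting set that level was not tested. It was at 3.87 ± 0.0917 TPM in scramble, 4.67 ± 0.396 TPM with Pink1 siRNA, 4.55 ± 0.318 TPM with Nrf2 siRNA and 4.13 ± 1.28 TPM with the double siRNA. The Pink1 siRNA samples (4.29 to 5.08 TPM) and the Nrf2 siRNA samples (4.18 to 4.75 TPM) lay above the scramble samples (3.79 to 3.97 TPM), with log2 differences of 0.22 and 0.19 that did not pass (limma adjusted p = 0.694 and 0.770). The narrow scramble group is an average of runs that differed more: in scramble replicate 1 the technical replicates read 4.72 and 2.86 TPM. Over all samples the SD of single technical runs of SLC1A5 was 0.24 on the log2 scale. Between biological samples, each an average of 2 runs, it was 0.21, which is not on the same footing.

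SLC38A1 (ENSG00000111371), a sodium-coupled glutamine carrier, had the higher TPM of the pair of SLC38 members. It was at 80.4 ± 10.1 TPM in scramble, 68.1 ± 6.48 TPM with Pink1 siRNA, 81.2 ± 5.10 TPM with Nrf2 siRNA and 82.9 ± 25.5 TPM with the double siRNA. The Pink1 siRNA samples, from 60.7 to 72.2 TPM, all lay under the Nrf2 siRNA samples, from 75.5 to 85.5 TPM. In this comparison the groups did not overlap for 3 of the 9 members, the chosen SLC7A8 among them, and for 18.8% of all genes. For SLC38A1 the log2 difference was -0.25 (95% interval -0.69 to 0.18, limma adjusted p = 0.746). The double siRNA held both the lowest and the highest sample of all 12, replicate 1 at 56.3 TPM and replicate 3 at 107 TPM. In these replicates ENSG00000226958 took its highest and lowest shares of all TPM, 41.4% and 15.5%. How far those shares set the spread of SLC38A1 was not tested.

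SLC38A2 (ENSG00000134294), an amino acid carrier known to be induced when amino acids run short, had a mean of 0.741 TPM over the 12 samples as deposited and was not among the genes tested. Whether the annotation or the counting set this low level was not tested. It was at 0.12, 1.06 and 0.70 TPM in scramble, 0.62, 0.385 and 0.19 TPM with Pink1 siRNA, 2.63, 0.66 and 0.505 TPM with Nrf2 siRNA, and 1.02, 0.945 and 0.06 TPM with the double siRNA. The groups overlapped, and technical replicates of 1 sample ranged from 0 to 1.24 TPM in replicate 1 of Pink1 siRNA. At this level and unknown depth no difference between the groups was tested, and none is read from these values.

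BCAT1 (ENSG00000060982), the cytosolic branched-chain aminotransferase, was at 46.5, 49.8 and 55.0 TPM in scramble and 54.2, 54.2 and 55.1 TPM with Pink1 siRNA. With Nrf2 siRNA it was at 26.0, 25.2 and 29.7 TPM, and with the double siRNA at 22.8, 32.3 and 19.1 TPM. The 6 samples given Nrf2 siRNA, alone or in the double, reached at most 32.3 TPM and the 6 others were at least at 46.5 TPM, while scramble overlapped with Pink1 siRNA and Nrf2 siRNA with the double siRNA. The means were 50.4 ± 4.29, 54.5 ± 0.518, 27.0 ± 2.38 and 24.7 ± 6.79 TPM in the order scramble, Pink1, Nrf2 and double.

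As BCAT1 was among the genes chosen with results of these samples in view, its p-values are not those of a gene picked beforehand. BCAT1 fell with the double siRNA by 1.03 on the log2 scale against scramble (SE 0.17, 95% interval -1.40 to -0.66, limma adjusted p = 0.0192), to 49.1% of the scramble mean. With Nrf2 siRNA the log2 difference from scramble was -0.88 (SE 0.17, -1.25 to -0.51), 53.5% of the scramble mean, and just missed the threshold (limma adjusted p = 0.0534). With Pink1 siRNA it was 0.11 (-0.26 to 0.49, limma adjusted p = 0.831). The Nrf2 siRNA difference passed with a pseudocount of 0.1 (adjusted p = 0.0497), a minimum mean of 5 TPM (0.0332), median-of-ratios rescaling (0.0349) and technical replicate 2 alone (0.0476), and SLC7A8 passed with Nrf2 siRNA under the same 4 alternatives (0.0455, 0.0313, 0.0496 and 0.0423).

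Between siRNA groups BCAT1 was lower with the double siRNA than with Pink1 siRNA by a log2 difference of -1.14 (SE 0.17, limma adjusted p = 0.0380), and higher with Pink1 siRNA than with Nrf2 siRNA by 0.99 (SE 0.17, limma adjusted p = 0.0178). The double siRNA and Nrf2 siRNA differed by -0.15 (95% interval -0.52 to 0.22, limma adjusted p = 0.912), and the interaction was -0.26 (-0.79 to 0.26, limma adjusted p = 0.920). The call against scramble in the double group was lost on leaving out scramble replicate 1, 2 or 3 (limma adjusted p = 0.0530, 0.0985 and 0.0944), at log2 differences of -1.08, -1.03 and -0.96, and when only the compared groups were fitted (0.226). The call of the double siRNA under Pink1 siRNA ended with the replicate block (limma adjusted p = 0.133) and with the compared groups alone (0.743), both at -1.14. It also ended without any one of the Pink1 siRNA replicates or without double siRNA replicates 1 or 3, at log2 differences of -1.15 to -0.98. The call of Pink1 siRNA over Nrf2 siRNA ended without any one of the Pink1 siRNA replicates, without Nrf2 siRNA replicates 2 or 3, or with the compared groups alone, at log2 differences of 0.95 to 1.06. The limma adjusted p was 0.0512 to 0.212 in the fits of both comparisons that left out a sample.

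Single technical runs of BCAT1 had an SD of 0.20 on the log2 scale. Biological samples, each an average of 2 runs, also had an SD of 0.20. An average of 2 runs varies less than a single run, so the technical and biological SDs are not on the same footing. The closeness of the 3 Pink1 siRNA values is a feature of the averages: the runs read 44.7 and 63.7, 59.5 and 49.0, and 57.0 and 53.2 TPM. With technical replicate 1 alone, all 3 calls of BCAT1 ended (limma adjusted p = 0.0750 for the double siRNA against scramble, 0.236 against Pink1 siRNA and 0.129 for Pink1 siRNA against Nrf2 siRNA), at log2 differences of -1.07, -1.13 and 0.91. For SLC7A8 the technical SD was 0.13 and the biological SD 0.23. Leukocyte markers were looked at beside the Nrf2 siRNA values: CD68, a lysosomal protein of macrophages and other cells, was at 19.3 to 37.9 TPM in scramble and 42.3 to 105 TPM with Nrf2 siRNA (limma adjusted p = 0.189), while the leukocyte-defining gene PTPRC was at most 0.445 TPM in any sample.

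BCAT2 (ENSG00000105552), the mitochondrial branched-chain aminotransferase, did not pass in any comparison. It was at 25.8 ± 4.93 TPM in scramble, 32.3 ± 9.71 TPM with Pink1 siRNA, 28.4 ± 1.65 TPM with Nrf2 siRNA and 34.8 ± 6.28 TPM with the double siRNA. Each siRNA group overlapped with scramble, and the log2 difference with the double siRNA was 0.42 (95% interval -0.05 to 0.89, limma adjusted p = 0.410). The ratio of BCAT1 to BCAT2 was 1.98 ± 0.216 in scramble, 1.80 ± 0.551 with Pink1 siRNA, 0.952 ± 0.124 with Nrf2 siRNA and 0.727 ± 0.221 with the double siRNA. All 6 samples given Nrf2 siRNA, at most at 1.09, lay under the 6 others, at least at 1.31. The sum of both was 76.2 ± 9.21, 86.8 ± 10.2, 55.4 ± 2.04 and 59.6 ± 8.95 TPM in the order scramble, Pink1, Nrf2 and double.

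Plotted against each other, SLC7A8 and BCAT1 set the 12 samples in 3 areas. The scramble samples had low SLC7A8 and high BCAT1, the Pink1 siRNA samples had both high, and the Nrf2 siRNA and double siRNA samples shared one area with SLC7A8 between 30.6 and 44.4 TPM and BCAT1 between 19.1 and 32.3 TPM. BCAT1 overlapped between scramble and Pink1 siRNA, so those groups were apart only along SLC7A8. That gap repeats the difference for which SLC7A8 was chosen, and nothing is read from it.

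**Figure D4:**
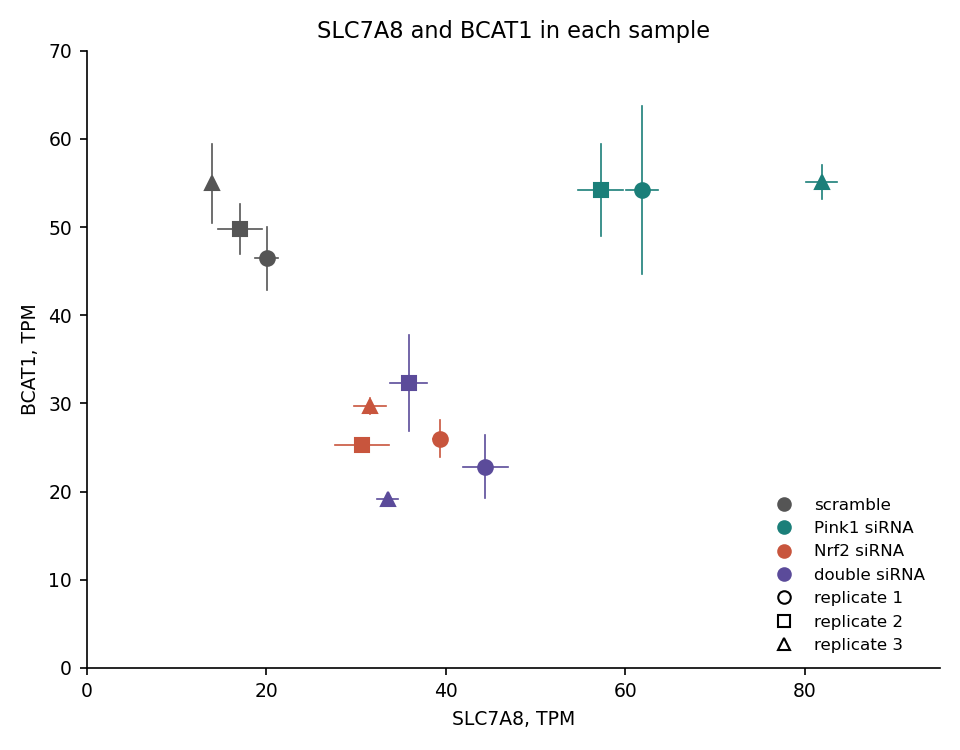
BCAT1 TPM (vertical) against SLC7A8 TPM (horizontal) in the 12 biological samples, coloured by siRNA group, with symbols for replicates and thin lines joining the values of both technical replicates. Nrf2 siRNA and double siRNA samples lie together, at most at 32.3 TPM of BCAT1, and the 3 Pink1 siRNA samples lie to the right, at 57.2 TPM of SLC7A8 or more. The gap between scramble and Pink1 siRNA along SLC7A8 repeats the difference for which that gene was chosen.

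The genes whose level followed SLC7A8 most closely over the 12 samples, among 9807 genes that averaged 5 TPM or more, were ZMIZ1 (Pearson r of log2 values 0.958), BCL7B (0.943), TYRP1 (0.928), CD276 (0.915) and POLR3D (0.912). TYRP1, a melanin synthesis enzyme of pigment cells, was at 9.92 ± 1.70 TPM in scramble, 45.5 ± 6.70 TPM with Pink1 siRNA, 23.2 ± 1.84 TPM with Nrf2 siRNA and 26.6 ± 7.11 TPM with the double siRNA, the same order of group means as SLC7A8. For BCAT1, the member whose group means spanned most after SLC7A8, they were TRIM16L (0.944), SMAD9 (0.932), TKT (0.914), SLC48A1 (0.907) and SCG2 (0.896). TKT, the pentose phosphate enzyme transketolase, was at 436 ± 43.2 TPM in scramble, 502 ± 87.0 TPM with Pink1 siRNA, 217 ± 16.8 TPM with Nrf2 siRNA and 218 ± 109 TPM with the double siRNA. These r values are descriptions over samples that share 4 groups, and the genes were picked for the highest r.

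Genes around the members were taken from lists by function. Of 37 other amino acid transporters 12 were tested and 0 were called in any of the 7 comparisons, and of 24 genes of branched-chain amino acid breakdown, most of which act after the BCATs, all 24 were tested and 0 were called. With an unadjusted limma p under 0.05 there were 1, 3 and 2 of the 12 transporters and 1, 1 and 3 of the 24 breakdown genes with Pink1, Nrf2 and double siRNA against scramble, where 12.2%, 12.2% and 14.2% of all genes had one. The transporters with the highest TPM were SLC38A10, at 41.4 ± 3.49 TPM in scramble and 55.0 ± 9.04, 54.5 ± 10.2 and 55.9 ± 0.588 TPM with Pink1, Nrf2 and double siRNA (smallest limma adjusted p against scramble 0.255), and SLC36A4, at 17.9 ± 4.49 TPM in scramble. The breakdown enzymes with the highest TPM were ACAT1 at 103 ± 3.74 TPM and ECHS1 at 74.5 ± 8.18 TPM in scramble. Median log2 differences from scramble with Pink1, Nrf2 and double siRNA were -0.05, 0.04 and -0.13 for the transporters and 0.01, -0.10 and -0.01 for the breakdown genes.

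Of 17 glutamine and glutamate enzymes 16 were tested and 0 were called by limma, with 4, 5 and 6 at an unadjusted p under 0.05 with Pink1, Nrf2 and double siRNA against scramble, where 12.2%, 12.2% and 14.2% of all genes were. They went both ways: 3 higher and 1 lower with Pink1 siRNA, 4 and 1 with Nrf2 siRNA, and 4 and 2 with the double siRNA. GLUD1, glutamate dehydrogenase, was at 67.0 ± 1.39 TPM in scramble and between 76.5 and 78.6 TPM on average in the siRNA groups.

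Of 35 genes of lysosomal amino acid export and mTORC1 amino acid sensing 33 were tested, and LAMTOR1 was the one called. Each of its calls, in the order given below, was 1 among the 33, where 0.333%, 0.753% and 0.992% of all genes were called. With an unadjusted limma p under 0.05, 3 of the list were higher and 1 lower with Pink1 siRNA against scramble. There were 1 and 2 with Nrf2 siRNA, and 1 and 5 with the double siRNA. Of all genes 12.2%, 12.2% and 14.2% had such a p with Pink1, Nrf2 and double siRNA. LAMTOR1 anchors the Rag GTPases, and with them mTORC1, to the lysosome. It was at 274, 276 and 307 TPM in scramble, 211, 209 and 282 TPM with Pink1 siRNA, 157, 118 and 127 TPM with Nrf2 siRNA, and 138, 138 and 128 TPM with the double siRNA. It fell with Nrf2 siRNA (log2 difference -1.09, SE 0.16, limma adjusted p = 0.0181) and with the double siRNA (-1.08, SE 0.16, 0.00856), and was higher with Pink1 siRNA than with Nrf2 siRNA (0.79, SE 0.16, 0.0317). These calls remained in 9, 13 and 7 of 15 alternatives each, and the first ended without any one of the scramble replicates and without Nrf2 siRNA replicates 2 or 3, the second without scramble replicate 3, and the third without any one of the Pink1 siRNA replicates and without Nrf2 siRNA replicates 2 or 3 (limma adjusted p from 0.0563 to 0.147 in those fits). Over all alternatives the log2 differences were -1.21 to -1.001, -1.18 to -0.98 and 0.65 to 0.91.

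Of 18 genes of the amino acid response through GCN2 and ATF4 17 were tested, and DDIT4, an inhibitor of mTORC1, was the one called. Each of its calls was 1 among the 17, where 0.333% of all genes were called with Nrf2 siRNA and 0.753% with the double siRNA. With an unadjusted limma p under 0.05, 3 of the list were higher and 0 lower with Pink1 siRNA against scramble. There were 4 and 1 with Nrf2 siRNA, and 2 and 1 with the double siRNA. Of all genes 12.2%, 12.2% and 14.2% had such a p with Pink1, Nrf2 and double siRNA. DDIT4 was at 19.7, 21.3 and 23.3 TPM in scramble, 27.5, 31.1 and 40.7 TPM with Pink1 siRNA, 38.7, 58.2 and 44.1 TPM with Nrf2 siRNA, and 38.4, 44.7 and 39.3 TPM with the double siRNA. It rose with Nrf2 siRNA (log2 difference 1.08, SE 0.18, limma adjusted p = 0.0248) and with the double siRNA (0.90, SE 0.18, 0.0395), and with Pink1 siRNA the log2 difference was 0.59 (0.201). These calls remained in 8 and 5 of 15 alternatives, and both ended without any one of the scramble replicates, the first also without Nrf2 siRNA replicates 2 or 3 and the second without double siRNA replicates 2 or 3 (limma adjusted p from 0.0676 to 0.151). Over all alternatives the log2 differences of DDIT4 were 0.92 to 1.23 and 0.80 to 0.98.

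Of 8 ubiquitin ligases and regulators of transporters 7 were tested, and NEDD4 and ARRDC3 were called. Pink1 siRNA against scramble gave 1 call among the 7, where 0.471% of all genes were called. Against Nrf2 siRNA it gave 2, where 0.992% were. With an unadjusted limma p under 0.05, 0 of the list were higher and 2 lower with Pink1 siRNA against scramble. There were 2 and 0 with Nrf2 siRNA, and 1 and 1 with the double siRNA. Of all genes 12.2%, 12.2% and 14.2% had such a p with Pink1, Nrf2 and double siRNA. NEDD4, a ubiquitin ligase known to act on membrane carriers, was at 8.94, 10.6 and 8.74 TPM in scramble, 3.86, 5.16 and 4.22 TPM with Pink1 siRNA, 8.75, 10.4 and 9.78 TPM with Nrf2 siRNA, and 5.53, 6.80 and 6.98 TPM with the double siRNA. It was lower with Pink1 siRNA than in scramble (log2 difference -0.95, SE 0.16, limma adjusted p = 0.0220) and than with Nrf2 siRNA (-0.98, SE 0.16, 0.0127), and with the double siRNA it differed from scramble by -0.49 (0.183). ARRDC3, an arrestin that recruits such ligases, was at 8.68 ± 0.784 TPM with Pink1 siRNA and 20.5 ± 5.71 TPM with Nrf2 siRNA, a log2 difference of -1.12 (SE 0.18, limma adjusted p = 0.0121), with scramble between them at 13.2 ± 1.56 TPM. The NEDD4 calls remained in 6 and 9 of 15 alternatives and the ARRDC3 call in 11. The first ended without any one of the scramble replicates and without Pink1 siRNA replicates 1 or 3, the second without Pink1 siRNA replicates 1 or 3 and Nrf2 siRNA replicates 2 or 3, and the ARRDC3 call without Pink1 siRNA replicates 1 or 3 (limma adjusted p from 0.0578 to 0.128). Over all alternatives the log2 differences were -1.09 to -0.86 and -1.12 to -0.90 for NEDD4 and -1.27 to -0.91 for ARRDC3.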

How the data were processed

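ARPE-19 mRNA was sequenced as 24 samples: 12 biological samples, 3 in each of 4 siRNA groups, with 2 technical replicates each. Libraries kept strand and reads were paired-end, per the labels' protocols. STAR, RSEM, edgeR, GRCh37 and hg19 stand in the submitters' processing notes; their versions, and the role of each, are not stated there. The authors deposited TPM for 24053 identifiers. These hold no read depth, and since TPM share a sample's total, a very abundant identifier lowers the others.

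Technical replicates were averaged, and log2(TPM + 1) of the 13810 genes averaging 1 TPM or more was fitted over the 4 groups in limma 3.58.1 (R 4.3.3) with a trended prior. This scale understates the change of low genes. Tests were two-sided, with p adjusted (Benjamini-Hochberg) over all tested genes within each of 7 comparisons and a threshold of 0.05. The fit was also run on simulated data with independent normal noise for each gene and planted changes. That simulation held no shift through a shared TPM total, so it is no check of the fit in that respect. A permutation test of 3 samples against 3 cannot give a two-sided p under 0.1. The labels do not say that biological replicates were separate cultures, so p-values measure the spread between these samples.

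The members and lists were chosen with earlier results of these data known. The naming rule takes the 10 members, PINK1, NFE2L2, SLC7A5P1 and SLC7A5P2, and from each list up to 4 called genes per comparison by adjusted p or, where none was called, the 2 genes with the highest mean TPM; for SLC7A8 and BCAT1 it adds the 5 genes with the highest Pearson r. Of 15 cell markers 9 were tested, and TYRP1 alone was called: higher than scramble in each siRNA group, and higher with Pink1 siRNA than with Nrf2 siRNA. Of all genes 0.471%, 0.333% and 0.753% were called with Pink1, Nrf2 and double siRNA against scramble, and 0.992% for Pink1 against Nrf2 siRNA. Against scramble the TYRP1 calls with Pink1, Nrf2 and double siRNA remained in 15, 6 and 12 of 15 alternatives, and its call of Pink1 over Nrf2 siRNA in 6. The second and the last ended without any one of the replicates compared (log2 differences 1.05 to 1.27 and 0.82 to 1.02), and the third without scramble replicate 2 (1.21, limma adjusted p = 0.0615). Other markers are named outside the rule, as checks of cell identity. The alternatives were a pseudocount of 0.1, no filter, a 5 TPM minimum, median-of-ratios rescaling, ENSG00000226958 removed, only the compared groups fitted, a block for replicate number, either technical replicate alone, and each biological replicate left out in turn. Promoter windows are RefSeq's on GRCh38.p14; coordinates on the files' build are not used here. Single values of some genes on the fixed lists are not reported here.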

Additional observations from a re-analysis of the deposited data

How the results depend on the processing

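Of the log2 differences recomputed under the alternatives, 642 kept their direction and their side of the threshold, 104 kept their direction and no longer passed, 10 kept it and newly passed, and 21 changed sign, all of them in comparisons in which the member was not called. With Nrf2 siRNA against scramble the count of members called went from 0 to 2 with a pseudocount of 0.1, a minimum mean of 5 TPM, median-of-ratios rescaling or technical replicate 2 alone, and was 0 in all leave-outs. With the double siRNA against scramble it went from 2 to 0 with the compared groups alone and to 1 with technical replicate 1 alone, and ranged from 0 to 2 over the leave-outs. For the double siRNA against Pink1 siRNA it went from 1 to 0 with the compared groups alone, the replicate block or technical replicate 1 alone, and ranged from 0 to 1 over the leave-outs. For Pink1 siRNA against Nrf2 siRNA it went from 2 to 1 with no filter and to 0 with the compared groups alone or technical replicate 1 alone, and ranged from 0 to 2 over the leave-outs. For the interaction it went from 0 to 1 with a minimum mean of 5 TPM, and ranged from 0 to 1 over the leave-outs. Leaving out a sample or fitting fewer groups leaves fewer samples for the fit; the cause of the other shifts was not tested.

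The sign changes were small. SLC3A2 with Nrf2 siRNA against scramble, at 0.00030 in the reported fit, was -0.025 with median-of-ratios rescaling, -0.017 with ENSG00000226958 removed and -0.057 with technical replicate 2 alone, and ranged from -0.086 to 0.073 over the leave-outs. With ENSG00000226958 removed, the log2 difference with the double siRNA against scramble was -0.0069 for SLC7A1, -0.039 for SLC1A5 and -0.10 for SLC38A1. With median-of-ratios rescaling SLC38A1 was at -0.0054 with Nrf2 siRNA and -0.015 with the double siRNA. Over the leave-outs, the double siRNA against scramble ranged from -0.061 to 0.23 for SLC3A2, -0.012 to 0.20 for SLC7A1, -0.11 to 0.26 for SLC1A5 and -0.20 to 0.26 for SLC38A1. SLC38A1 with Nrf2 siRNA ranged from -0.073 to 0.11, SLC7A5 with Pink1 siRNA against scramble from -0.16 to 0.0048, and BCAT1 with the double siRNA against Nrf2 siRNA from -0.35 to 0.013.

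Over all genes, calls ranged over the alternatives from 22 to 172 for Pink1 siRNA against scramble (65 reported), 6 to 148 for Nrf2 siRNA (46), 6 to 335 for the double siRNA (104), 0 to 22 for the double against Pink1 siRNA (6), 0 to 4 for the double against Nrf2 siRNA (2), 5 to 311 for Pink1 against Nrf2 siRNA (137) and 0 to 4 for the interaction (0). Same-numbered replicates did not deviate together: the correlation of their deviations from the group means had a median of 0.0025 and was over 0.1 in 1 of 18 pairs, so the numbers were not taken as pairs. With the replicate block BCAT1 in the double siRNA against Pink1 siRNA kept its log2 difference of -1.14 and did not pass (limma adjusted p = 0.133), and the count of members called changed in no other comparison.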
